A study of Homo sapiens with 8 samples.

Results

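The 9 genes described here, MDM2, MDM4, CDKN1A, AEN, FAS, ZMAT3, SESN1, FDXR and TP53I3, belong to the p53 pathway and were taken by symbol from the 17649 genes measured. All 9 were found, and all 9 averaged above 1 CPM, the unit of the values (a gene's reads relative to the scaled size of its library). The cells are MDA-MB-231, an established human breast cancer line that lacks the estrogen receptor. The study asked how carboxymethyllysine (CML), an advanced glycation end product in which lysine has been modified by sugars, changes their transcriptome. RNA-Seq was performed on 4 control cultures that received PBS and 4 cultures that received 1 μM CML, all for 48 hours in medium with 5 mM glucose. The labels name no engineered change, all cultures are of 1 cell line, and no source used here says whether the replicates were handled on separate days, so p-values measure only the spread between these cultures. The libraries held between 16161802 and 18954733 estimated reads, and 1 read was worth between 0.0535 and 0.0622 CPM.

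The p53 protein is a transcription factor that accumulates after DNA damage and other stress, and its targets stop the cell cycle, promote repair, tune metabolism or trigger apoptosis. MDM2, itself a target, marks p53 for degradation, and MDM4 is its relative that binds p53 and blocks its activity, so that the pathway restrains itself. CDKN1A encodes p21, the inhibitor of cyclin-dependent kinases through which p53 lowers the expression of many cell cycle genes. MDA-MB-231 is known as a p53-mutant line. The values here are RNA levels, and they show neither a mutation nor a protein.

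Markers of the line and of other cell types were examined first. VIM, the mesenchymal intermediate filament, lay between 4014 and 4243 CPM, and CD44 between 803 and 885 CPM. PGR did not exceed 0.114 CPM in any library, CDH1, the epithelial cadherin, lay between 0.311 and 0.954 CPM, and PTPRC, a marker of blood cells, between 0.116 and 0.650 CPM. The keratins KRT8 and KRT18 lay between 183 and 239 and between 310.5 and 355 CPM, ERBB2 between 44.1 and 54.4 CPM, GATA3 between 3.47 and 5.60 CPM and EPCAM between 12.7 and 16.3 CPM. PECAM1, an endothelial marker, lay between 2.36 and 3.84 CPM. Such bulk values cannot tell a change in the share of cells that express a gene from a change in RNA per cell. ESR1 was not analyzed here.

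The binding sites of p53 are built from pairs of a short palindromic word, the p53 decamer, and the word was searched for in RefSeq promoter windows of GRCh38.p14 (250 bases before to 50 after a start). The pattern that defines the decamer allows several letters at most positions and reads the same on both strands, so 1 search covers both. All 9 genes had a window, and some had more than 1, for 18 windows in all. The decamer was present in 4 of these 18 windows (22.2%), compared with 2329 of all 35116 windows (6.63%). It was present in 6 of 73 windows (8.22%) of the further p53 targets described below and in 3 of 14 windows (21.4%) of the cell cycle genes described last. The p53 family members and regulators had it in 0 of 25 windows, and the cell identity markers in 1 of 20. Counted by gene, the decamer was found for 4 of the 9 and for 2202 of all 27305 genes. It was found for 6 of 50 further targets and 2 of 10 cell cycle genes. The differences between these shares were not tested. A match is a description of the letters and not a shown binding site. The 4 matches belong to AEN, FDXR, FAS and SESN1 and are printed because AEN is the gene that differed between the groups while the other 3 share the same kind of word. The stretch shown for AEN is chr15:88621296-88621325 on the plus strand, that for FDXR chr17:74872986-74873015 on the minus strand, that for FAS chr10:88991299-88991328 on the plus strand and that for SESN1 chr6:109009018-109009047 on the minus strand, with the decamer in capitals.
AEN: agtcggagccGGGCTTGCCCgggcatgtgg
FDXR: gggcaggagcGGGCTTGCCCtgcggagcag
FAS: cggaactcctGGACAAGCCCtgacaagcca
SESN1: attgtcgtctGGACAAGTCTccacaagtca
The decamers of AEN and FDXR have identical letters and begin 34 and 11 bases before the start of their window's transcript, and those of FAS and SESN1 begin 122 and 49 bases before theirs. For FDXR this is the annotated 5′ end of the gene, whereas the starts used for AEN, FAS and SESN1 lie 16657, 27381 and 85858 bases inside the gene's outermost limits given below. No window of the 9 genes held a full site, which was counted as a pair of decamers at most 13 bases apart and was found in 10 of all windows (0.0285%). Of the other target genes examined below, DDB2, a damage recognition factor of nucleotide excision repair, had one, which begins 5 bases after the start of a transcript, at chr11:47214975-47215004 on the plus strand.
DDB2: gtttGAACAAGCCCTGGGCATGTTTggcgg

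The groups were compared with limma on log2(CPM + 1), with Benjamini-Hochberg adjustment over all 17649 genes, and a gene was called at the false discovery rate of 0.3 that the study used for this experiment. AEN was the 1 gene of the 9 that rose with CML, and 0 of the 9 fell. Among all genes tested, 158 were called (0.895%), 119 higher (0.674%) and 39 lower (0.221%), a split that was 46 higher and 27 lower after each library was centered on its median and 90 higher and 54 lower after quantile normalization. At an adjusted p of 0.05 limma called 0 genes, AEN included, while 1352 genes had an unadjusted p under 0.05 (7.66%). With a pseudocount of 0.1 in place of 1, AEN had an adjusted p of 0.0487 from limma. The groups did not overlap for AEN, and they overlapped for the other 8 genes. Over all genes, 442 were without overlap and higher with CML (2.5%), and 225 were without overlap and lower (1.27%). Among the 13047 genes averaging 1 CPM or more, 396 were higher and 170 lower without overlap. The median log2 fold change was 0.05 over the 9 genes and 0.01 over all genes.

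**Figure D1:**
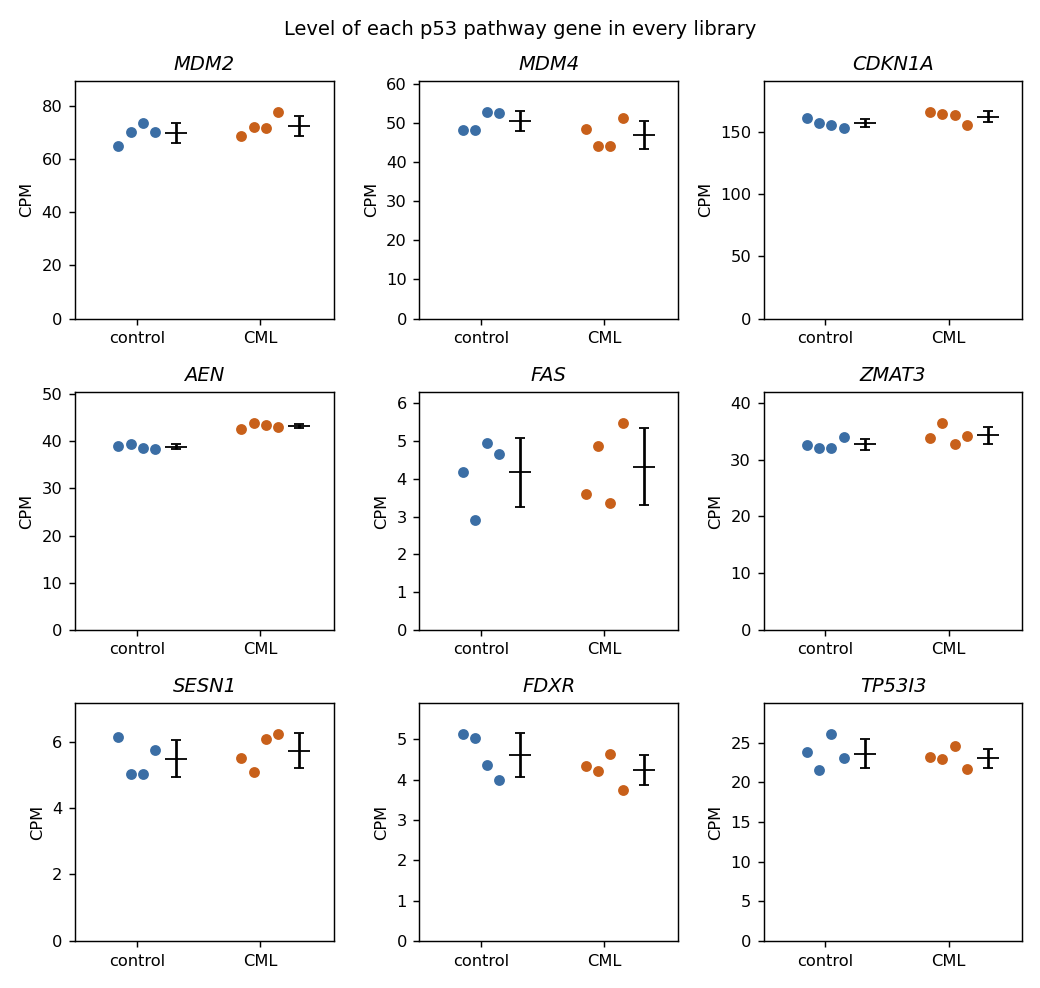
Level of each of the 9 genes in CPM (linear axis from 0) in the 4 control libraries (blue) and the 4 CML libraries (orange), in the order of replicate numbers, with the mean and SD of each group in black. The AEN points of the groups are apart, at 38.3 to 39.6 CPM against 42.7 to 43.9 CPM, and those of the other genes overlap.

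AEN encodes apoptosis enhancing nuclease, an exonuclease that p53 is known to induce. Its gene lies on chromosome 15 of GRCh38.p14 from 88604683 to 88632281, and no gene of GENCODE release 44 overlaps it. It was at 38.9, 39.6, 38.6 and 38.3 CPM in control replicates 1 to 4 and at 42.7, 43.9, 43.5 and 43.1 CPM in CML replicates 1 to 4. Every CML library was above every control library. The control mean was 38.9 ± 0.531 CPM (SD, n = 4), and with CML AEN rose by 11.4% to 43.3 ± 0.504 CPM. The log2 fold change was 0.15 with a standard error of 0.0162, a 95% interval from 0.11 to 0.19 and an adjusted p of 0.0802 from limma, and AEN ranked 7 of all genes by p.
Between 639 and 820 estimated reads stood behind each AEN value, and they were whole numbers in all 8 libraries. For that many reads counting alone gives a coefficient of variation of 3.90% in control libraries, and the observed one was 1.37%, so the standard error of limma is smaller than counting error allows. From counting error alone, the log2 ratio of the group means was 0.16 with an interval from 0.08 to 0.23. Such an interval leaves out the spread between cultures and does not set AEN apart. It was also wholly positive for CDKN1A (0.01 to 0.09) and wholly negative for MDM4 (−0.18 to −0.04), which were not called. For the remaining genes it held both signs.
When any single library was omitted, AEN kept a log2 fold change between 0.15 and 0.16 and its adjusted p from limma between 0.0757 and 0.227. Among the other 9 alternatives, AEN was not called when testing was limited to the 13047 genes averaging 1 CPM or more (adjusted p = 0.354 from limma), and the cause was not tested.

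**Figure D2:**
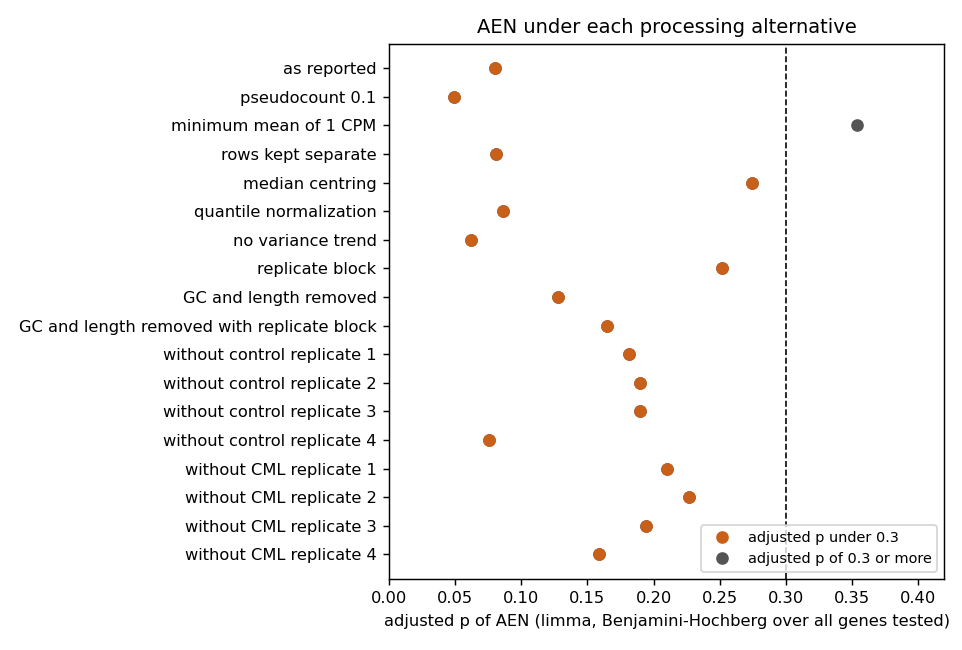
Adjusted p of AEN (horizontal axis, limma with Benjamini-Hochberg adjustment) as reported and under each of 17 processing alternatives (vertical axis), with a dashed line at 0.3 and orange points below it. The 1 gray point, at 0.354, is the fit restricted to genes averaging 1 CPM or more.

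The feedback inhibitors MDM2 and MDM4 were not called. MDM2, on chromosome 12 from 68808172 to 68850686, was at 64.8, 70.3, 73.7 and 70.1 CPM in control replicates 1 to 4 and at 68.5, 72.0, 71.5 and 77.7 CPM in CML replicates 1 to 4. The lowest library was a control and the highest a CML library, with the rest mixed. Its log2 fold change was 0.05 with an interval from −0.06 to 0.17 (adjusted p = 0.897 from limma). The estimated reads of MDM2 were whole in only 1 of 8 libraries, and the carboxypeptidase M gene, at a mean of 1.92 CPM in control cells, overlaps it on the opposite strand, so its level is uncertain.
MDM4, on chromosome 1 from 204516406 to 204558120, was at 48.1, 48.2, 52.7 and 52.6 CPM in control replicates 1 to 4 and at 48.3, 43.979, 43.9 and 51.1 CPM in CML replicates 1 to 4. CML replicates 2 and 3 were below every control library, and CML replicates 1 and 4 were within the control range. The log2 fold change was −0.10, with an interval from −0.25 to 0.04 (adjusted p = 0.789 from limma). In a fit of 12977 genes from which trends with GC content and length had been removed within each library, MDM4 was called lower, at −0.12 with an adjusted p of 0.278, and 2.34% of these genes were called lower.

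CDKN1A, on chromosome 6 from 36676463 to 36687332, was at 161, 158, 156 and 153 CPM in control replicates 1 to 4 and at 166, 165, 163 and 156 CPM in CML replicates 1 to 4. CML replicates 1 to 3 were above every control library, and CML replicate 4 lay within the control range. The mean was 157 ± 3.29 CPM in control and 162 ± 4.76 CPM in CML-exposed cells (SD, n = 4 each). The log2 fold change of 0.05 had an interval from −0.01 to 0.11 and an adjusted p of 0.750 from limma, and with 2500 to 3082 reads per library CDKN1A was the most deeply covered of the 9 genes.

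FAS and ZMAT3 are also induced by p53. FAS encodes the death receptor that triggers apoptosis when its ligand binds, and it lies on chromosome 10 from 88964050 to 89017059. It was at 4.17, 2.90, 4.96 and 4.66 CPM in control replicates 1 to 4 and at 3.59, 4.87, 3.35 and 5.48 CPM in CML replicates 1 to 4. Both groups spread from about the same low to about the same high level, on 49 to 91 reads per library, and the interval of the log2 fold change, from −0.39 to 0.47 around 0.04, was the widest of the 9 genes (adjusted p = 1 from limma). ACTA2 overlaps FAS on the opposite strand, with 1.37 CPM in control and 1.18 CPM in CML-exposed cells.
ZMAT3 encodes an RNA-binding zinc finger protein that regulates splicing downstream of p53, on chromosome 3 from 179017223 to 179072513. It was at 32.6, 32.043, 32.1 and 34.0 CPM in control replicates 1 to 4 and at 33.8, 36.4, 32.8 and 34.2 CPM in CML replicates 1 to 4. Control replicate 4 was above CML replicates 1 and 3, so the groups overlapped. The log2 fold change was 0.07, with an interval from −0.02 to 0.15 (adjusted p = 0.760 from limma).

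The remaining genes have roles in metabolism and redox balance. SESN1 encodes a sestrin, which restrains growth signaling through mTORC1, and lies on chromosome 6 from 108984309 to 109094846. It was at 6.14, 5.03, 5.02 and 5.76 CPM in control replicates 1 to 4 and at 5.50, 5.08, 6.09 and 6.22 CPM in CML replicates 1 to 4, with overlap of the groups. Its log2 fold change was 0.05 with an interval from −0.15 to 0.26 (adjusted p = 0.977 from limma).
FDXR, on chromosome 17 from 74862497 to 74872994, encodes the mitochondrial reductase that passes electrons to ferredoxin. It was at 5.13, 5.03, 4.35 and 3.99 CPM in control replicates 1 to 4 and at 4.34, 4.23, 4.63 and 3.73 CPM in CML replicates 1 to 4. The lowest value was in CML replicate 4, and the other CML libraries were within the control range. Its log2 fold change was −0.10 with an interval from −0.31 to 0.11 (adjusted p = 0.897 from limma). FDXR, whose decamer has the same letters as that of AEN printed above, was thus not called, and the difference between these genes was not tested.
TP53I3, on chromosome 2 from 24077433 to 24084834, encodes a quinone oxidoreductase linked to oxidative stress and to apoptosis induced by p53. It was at 23.8, 21.6, 26.1 and 23.1 CPM in control replicates 1 to 4 and at 23.2, 22.9, 24.6 and 21.7 CPM in CML replicates 1 to 4. All CML libraries were within the control range. Its log2 fold change was −0.03 with an interval from −0.18 to 0.12 (adjusted p = 0.989 from limma), and FAM228B, at 5.23 CPM in control cells, overlaps it on the opposite strand.

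**Figure D3:**
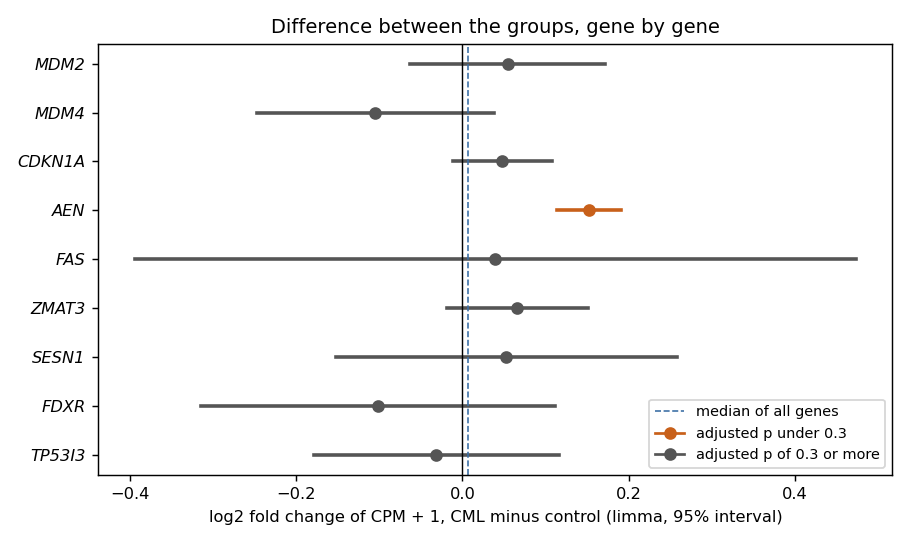
Log2 fold change of CPM + 1 between CML-exposed and control cells (horizontal axis) for each of the 9 genes (vertical axis), with the 95% interval from limma and the median of all genes as a dashed line. AEN, at 0.15 with an interval from 0.11 to 0.19, is the 1 gene in orange (adjusted p under 0.3), and the intervals of the 8 others include 0.

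Per kilobase of transcript, which allows levels of different genes to be compared, CDKN1A stood highest, at 74.2 ± 1.55 CPM per kilobase in control cells (SD, n = 4). TP53I3 (14.3 ± 1.13) and AEN (12.6 ± 0.173) followed in control cells, with AEN below TP53I3 in every library of that group. With CML the levels of AEN (14.1 ± 0.164) and TP53I3 (13.9 ± 0.721) overlapped. In control cells MDM2 (9.31 ± 0.487), MDM4 (5.01 ± 0.261), ZMAT3 (3.66 ± 0.103), FDXR (2.50 ± 0.295), FAS (1.63 ± 0.355) and SESN1 (0.968 ± 0.0984) came next, each without overlap with its neighbors. With CML the order of these 6 genes was the same, and the ranges of FDXR and FAS overlapped. The length was that of the canonical transcript of GENCODE release 44, except for FAS, where the longest coding transcript of the basic set was used.
The 9 genes did not move together over the 8 libraries. Of their 36 pairs 17 had a positive Pearson's r of log2(CPM + 1), and r ranged from −0.813 to 0.644 with a median of −0.012. The highest value, between CDKN1A and AEN, comes from libraries of both groups, in which AEN differs. These r values describe 8 libraries whose genes share depth and scaling.
The genes outside the lists whose level followed MDM2 most closely over the 8 libraries, among 9330 genes averaging 10 CPM or more, were AC010132.3 (r = 0.967), GPN1 (r = 0.951) and CRY1 (r = 0.929). Those closest to CDKN1A were SDHA (r = 0.976), PUF60 (r = 0.975) and PELO (r = 0.971). The log2 fold changes of these 6 genes lay between 0.04 for SDHA and 0.14 for AC010132.3, and limma called 0 of the 6. Picking the highest of 9330 values of r over 8 libraries favors high values by itself. Shared regulation was not tested, and the level of MDM2 is uncertain, as stated above.

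TP63 and TP73, which encode relatives of p53, were near the limit of detection, with 4 to 18 reads per library for TP63 and 2 to 13 for TP73. CDKN2A, whose alternative product ARF inhibits MDM2, was listed at 0 in 7 libraries and had 1 read in CML replicate 3.
Limma called 0 of the 16 genes in the list of p53 family members, regulators and upstream kinases, where 0.895% of all genes were called. An unadjusted p under 0.05 was found for 0 of the 16 and for 7.66% of all genes. RCHY1 and COP1, ubiquitin ligases that act on p53, had log2 fold changes of −0.05 and 0.06. The kinases ATM and ATR, which signal DNA damage to p53, were at 112 ± 5.98 and 37.2 ± 3.78 CPM in control and at 112 ± 5.81 and 38.5 ± 2.94 CPM in CML-exposed cells (SD, n = 4 each).

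Beyond the 9 genes, 61 further p53 targets were listed by role, and 57 of them were tested. TP53AIP1, EDA2R, GLS2 and SERPINB5 were not analyzed here. Limma called 0 of the 57, where 0.895% of all genes were called. An unadjusted p under 0.05 was found for 8, all higher with CML (4.77% of all genes were, and 737 of the 13047 averaging 1 CPM or more). Of the 57, 5 were higher without overlap of the groups (2.5% of all genes were, and 396 of those 13047). Their median log2 fold change was 0.02, with 38 genes above 0 (66.7%, against 53.5% of all genes and 58.8% of those averaging 1 CPM or more) and 18 below it. After removal of the dependence on GC content and length, in a fit limited to genes averaging 1 CPM or more with both values known, limma called 6 of the 52 targets it held higher, among them PLK2, GTSE1, TNFRSF10A, PCNA and CD82, and 1 lower, XPC. In that fit 3.29% of all 12977 genes were called higher and 2.34% lower. Without control replicate 4 it called 6 targets, APAF1, CD82, GTSE1, PLK2, RRM2B and TNFRSF10A, all higher, and 3.04% of all genes were called higher.
Among the arrest genes, the stress kinase PLK2 had 135 ± 3.88 CPM in control and 146 ± 4.27 CPM in CML-exposed cells (SD, n = 4 each). Its log2 fold change was 0.11 (adjusted p = 0.399 from limma). GTSE1, a microtubule-associated protein that also restrains p53 and is expressed in G2, came to 0.20 (adjusted p = 0.400), and GADD45A, a damage-inducible regulator of arrest, to 0.10 (adjusted p = 0.815). PLK2 and GTSE1 were higher in every CML library than in every control library.
Of the apoptosis genes, TNFRSF10A, a TRAIL receptor, came closest to the threshold. Control replicates 1 to 4 had 61.3, 60.3, 59.5 and 61.1 CPM and CML replicates 1 to 4 had 66.6, 63.6, 68.4 and 64.1 CPM, without overlap, and the log2 fold change of 0.12 had an adjusted p of 0.307 from limma. PMAIP1, which encodes the BH3-only protein NOXA, had a log2 fold change of 0.09 (adjusted p = 0.607), and APAF1, the scaffold of the apoptosome, 0.14 (adjusted p = 0.721). BBC3 and BAX, the classic proapoptotic targets, had 0.07 and −0.02.
In the repair list, the sliding clamp gene PCNA had 0.17 on the log2 scale (adjusted p = 0.554 from limma), the damage sensor XPC −0.18 (adjusted p = 0.700) and RRM2B, a ribonucleotide reductase subunit, 0.07 (adjusted p = 0.760). DDB2, whose full site is printed above, was at 10.9 ± 1.27 CPM in control and 10.6 ± 0.616 CPM in CML-exposed cells (SD, n = 4 each).
In the metabolic list, TIGAR, a phosphatase that diverts glucose from glycolysis, had the largest value, 0.31, but its interval ran from −0.10 to 0.72 (adjusted p = 0.775 from limma) and its estimated reads were whole in 1 of 8 libraries. SESN2 and FUCA1 had 0.08 and 0.10. Of the other targets, the tetraspanin gene CD82 had 0.12 (adjusted p = 0.489 from limma) and TGFA, a ligand of the EGF receptor, 0.10 (adjusted p = 0.474).

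**Figure D4:**
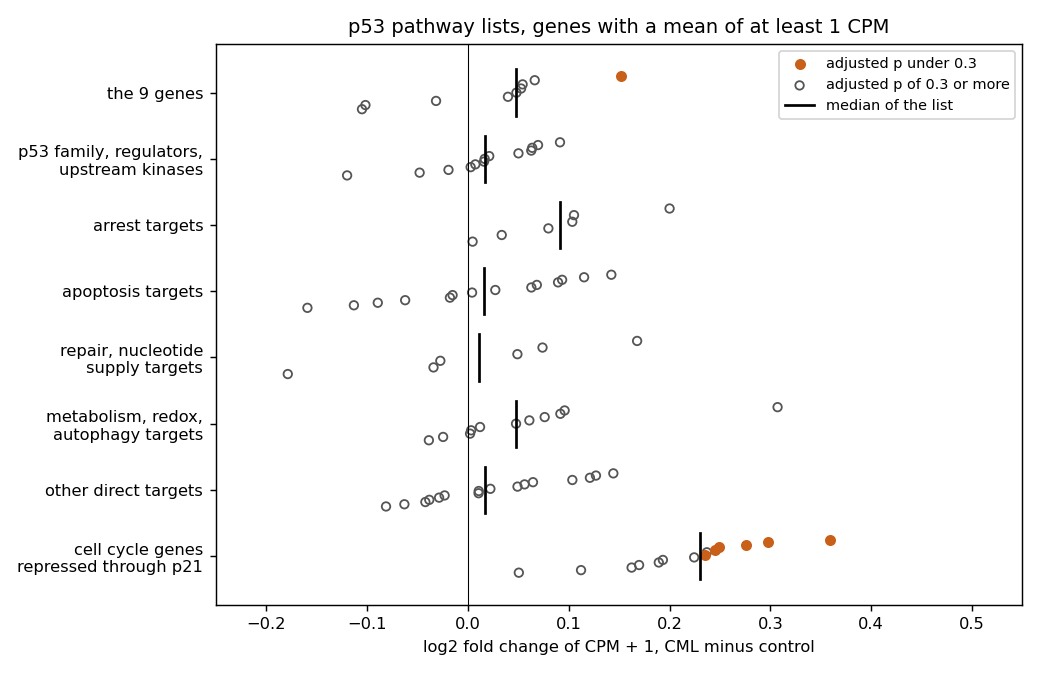
Log2 fold change of CPM + 1, CML minus control (horizontal axis), of each gene averaging 1 CPM or more in 8 lists (vertical axis), with orange points for an adjusted p under 0.3 and a black line at each list's median. Orange points are seen for AEN among the 9 genes and for 6 cell cycle genes at the bottom.

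The other arm of the pathway is repression: p53 is known to lower cell cycle genes by way of p21. All 14 genes of that list had a log2 fold change above 0, compared with 58.8% of all genes averaging 1 CPM or more. Limma called 6 higher and 0 lower, where 0.674% of all genes were called higher. Among the 13047 genes averaging 1 CPM or more, 108 were called higher and 396 were higher without overlap. The 6 were MKI67, CCNB1, FOXM1, CCNA2, BUB1 and TOP2A, and 8 of the 14 were higher without overlap of the groups (2.5% of all genes were). The list was compiled with the rise of proliferation genes in these libraries already known, so its direction is not independent evidence. MKI67, a marker of cycling cells, was at 116, 124, 127 and 128 CPM in control replicates 1 to 4 and at 153, 155, 148 and 153 CPM in CML replicates 1 to 4. All CML libraries were above all control libraries, by 23.0% on average (log2 fold change 0.30, standard error 0.0344, adjusted p = 0.0856 from limma).
CCNB1, the mitotic cyclin, was 21.4% higher (0.28, adjusted p = 0.0889 from limma) and FOXM1, a transcription factor of G2 genes, 18.1% higher (0.24, adjusted p = 0.0889). CCNA2, the cyclin of S phase and G2, was 29.0% higher (0.36, adjusted p = 0.0897), BUB1, a kinase of the spindle checkpoint, 18.9% higher (0.25, adjusted p = 0.128) and TOP2A, a topoisomerase, 18.8% higher (0.25, adjusted p = 0.293). CCNA2 overlaps EXOSC9, and FOXM1 overlaps ITFG2 and RHNO1, on opposite strands. CDKN1A, in the same libraries, had the log2 fold change of 0.05 given above. The number called in this list was 2, MKI67 and CCNA2, without CML replicate 2, where 0.0907% of all genes were called higher, and 10 without control replicate 4, where 3.04% were. It was 11 after removal of the dependence on GC content and length, where 3.29% were.

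**Figure D5:**
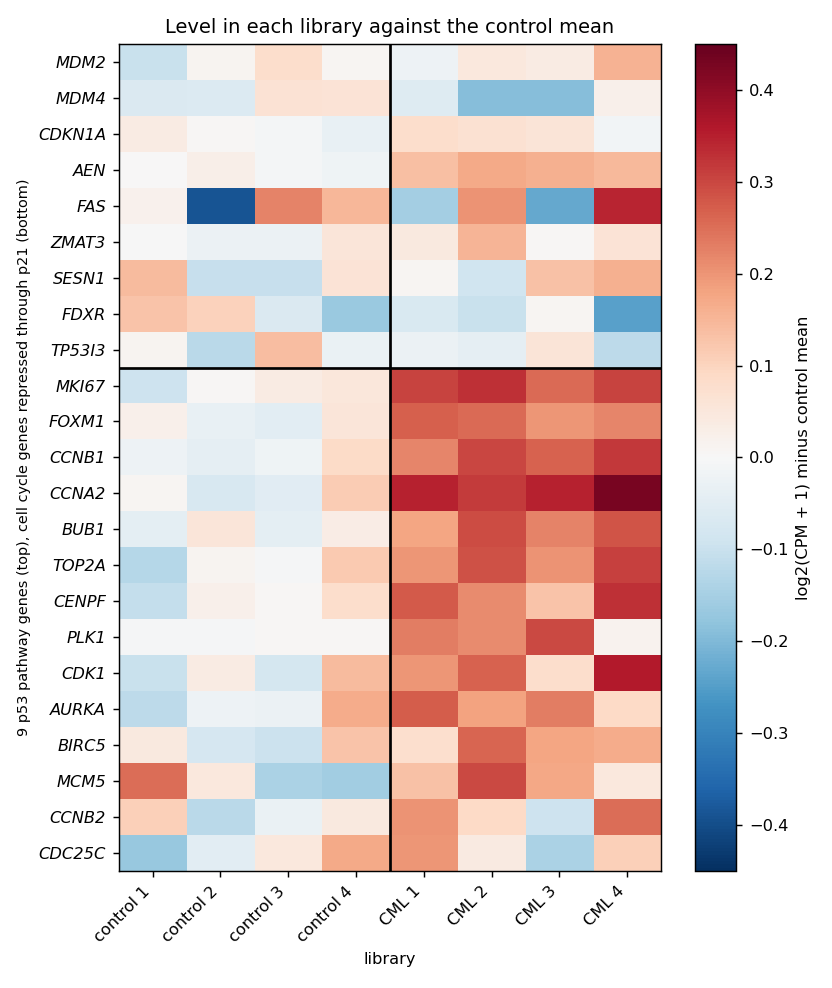
Difference of log2(CPM + 1) from the control mean (color, blue lower and red higher) in each library (columns) for the 9 genes (top) and the 14 cell cycle genes repressed through p21 (bottom, by increasing p). The AEN row and the upper cell cycle rows are red in all 4 CML libraries, and CDKN1A is not in CML replicate 4.

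Promoters of this cell cycle list were also searched for TTTGAA, the core of the cell cycle genes homology region through which the repressor complex downstream of p21 is known to act. On either strand it was present in 9 of the 14 RefSeq windows of the 10 genes that had one (64.3%), compared with 5324 of all 35116 windows (15.2%) and 4 of the 18 windows of the 9 genes (22.2%). BIRC5, FOXM1, AURKA and MCM5 had no window. The differences between these shares were not tested, and a match is a description of the letters and not a shown binding site. Only words beginning 20 to 40 bases before the start of a RefSeq transcript were kept for display. In 4 genes such a word was found, 29 or 30 bases before the start. The share of all windows with the word at that position was not counted. The 4 are shown with the word in capitals. MKI67 is from chr10:128126435-128126464 and CDC25C from chr5:138331817-138331846 on the minus strand. CCNB2 is from chr15:59105105-59105134 and PLK1 from chr16:23678848-23678877 on the plus strand.
MKI67: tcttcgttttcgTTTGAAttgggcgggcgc
CDC25C: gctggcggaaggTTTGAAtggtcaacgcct
CCNB2: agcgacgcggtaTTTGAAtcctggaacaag
PLK1: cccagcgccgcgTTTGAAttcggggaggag
Of these 4 genes MKI67 was called. PLK1, a mitotic kinase, had 0.19 on the log2 scale (adjusted p = 0.478 from limma), CCNB2, a mitotic cyclin, 0.11 (adjusted p = 0.879) and CDC25C, the phosphatase that activates CDK1, 0.05 (adjusted p = 0.990). The word was also present in windows of TOP2A, which was called, and of CDK1 and CENPF, which were not. CCNB1, CCNA2 and BUB1 were called and their windows lack these letters.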

How the data were processed

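RNA-Seq values of 8 libraries were used, 4 control and 4 CML, grouped by sample title. The authors deposited CPM values scaled with edgeR's TMM factors. Their methods describe this scaling for tumors and xenografts, and name such values for the pathway analysis, which included cell lines. The submitters' processing notes name edgeR and hg38, and the methods name a stranded kit, Tophat and hg19 for tumors, while for these libraries the kit, aligner and counting tool are not given in the sources used here. Columns summed to between 986730 and 1014124. Each library's values fell on steps worth 1 read, and 85.1% to 86.1% of values above 0 were whole reads (within 0.02), so counts were estimates and no count test was run. Rows sharing a symbol were averaged (17681 rows, 17649 genes), and limma 3.58.1 in R 4.3.3 was run on log2(CPM + 1) with a variance trend and no covariate, after a test on simulated data. The methods give a HiSeq instrument for the CML experiment, and the labels of every library give both HiSeq and NextSeq, so libraries could not be split by instrument. Fold changes on this scale understate those of low genes. Sequences came from RefSeq tables of GRCh38.p14.

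All gene lists, the 9 genes and the naming rule (the 9, the 3 smallest p per list at a mean of at least 1 CPM, TP63, TP73 and CDKN2A by level, and the 3 closest genes to MDM2 and CDKN1A) were chosen with earlier results of these data known. ATM, ATR, BBC3, BAX, DDB2, the genes called in the cell cycle list, those shown with TTTGAA and those called under an alternative were named after their values were seen. Some genes that the rule or a count covers are not reported here. The settings varied were the pseudocount (0.1), the minimum mean (1 CPM), row averaging, scaling (median centering, quantile normalization), the variance trend, the replicate number as a block, removal of GC and length dependence on the 12977 genes averaging 1 CPM or more with both known (with and without that block) and each library left out.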

Additional observations from a re-analysis of the deposited data

Results flagged for a closer look

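Among 60 groups of 4 libraries (the 9 genes and the named genes of the lists), 5 had a library far from the rest of its group against the group's range, and chance gives about 3.0. None of the 5 was in the 9 genes. PLK2 was at 152.1 CPM in CML replicate 4 and at 142.8 to 144.4 CPM in the other CML libraries. XPC was at 33.44 CPM in control replicate 3 and did not exceed 28.56 CPM in the other control libraries. RRM2B was at 50.44 CPM in control replicate 4, with the others up to 45.29 CPM. CD82 was at 93.58 CPM in CML replicate 2, with the others up to 89.65 CPM. CCNB1 was at 71.75 CPM in control replicate 4, with the others up to 66.52 CPM.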

How the results depend on the processing

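Of 153 values of the 9 genes under the 17 alternatives, 146 kept their direction and their side of the threshold. Leaving out single libraries turned the log2 fold change of FAS, which ranged from −0.0902 to 0.13, and of TP53I3, which ranged from −0.07231 to 0.01485. The causes of the moves below were not tested. Over all genes limma called 158 as reported, 73 after median centering, 141 at a minimum mean of 1 CPM, 731 after removal of GC and length dependence (on 12977 of the 13047 genes at that minimum) and 809 with the replicate block added to that removal, and between 20 (without CML replicate 2) and 690 (without control replicate 4) with a library left out. Of the 9 genes it called 1 as reported, 0 at a minimum mean of 1 CPM, and 2 after removal of GC and length dependence with or without the block, AEN and MDM4. Of the 57 further targets it called 0 as reported, 1 of 53 at that minimum, 1 with the replicate block (PLK2), 7 of 52 after removal of GC and length dependence with or without the block, and 0 to 6 with a library left out. Of the 14 cell cycle genes it called 6 as reported, 11 after that removal with or without the block, and 2 to 10 with a library left out. Same-numbered libraries deviated from their group means with correlations from −0.0645 to 0.334, and 2 of 4 control libraries correlated best with their own number, so the number was not taken as a pairing. With the block limma called 189 genes, and AEN had an adjusted p of 0.252. Depth limited FAS, SESN1 and FDXR most, at 49 to 103 reads per library.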

Other observations

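The genes next to AEN on chromosome 15 were looked at after its value was seen. MRPL46, MRPS11 and DET1, which precede it, had log2 fold changes of 0.00, 0.00 and 0.06. ISG20, an exonuclease gene of the same family that follows it, was at 4.91 ± 0.575 CPM in control and 6.24 ± 0.691 CPM in CML-exposed cells (SD, n = 4 each). Its log2 fold change was 0.29 (adjusted p = 0.512 from limma). HAPLN3, beyond it, had a log2 fold change of 0.39 at 1.13 CPM in control cells, and its adjusted p from limma was 0.554. ACAN, between them, was listed at 0 in all libraries.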
